A study of Mus musculus with 13 samples.

Results

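The crush response of Schwann cells (SCs), the glia of peripheral nerves, was examined for 6 genes: Clca3a2, Gzmb, Sez6, Itih5, Sostdc1, and Ccdc80. They are 6 of the 40787 genes in the count table. They were chosen by their values in injured nerves, because they were among the strongest decreases in crushed knockout nerves relative to crushed control nerves. Values in injured nerves are therefore a description and carry no test. The uninjured contralateral nerves were not used for the choice, and only there were the 6 genes tested for a genotype difference.

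All mice were C57BL/6. Controls were homozygous for a floxed Rptor allele and lacked Cre, and RaptorKO mice carried the same floxed alleles plus a tamoxifen-inducible Cre expressed in SCs. Rptor encodes Raptor, a subunit of the growth-regulating kinase complex mTORC1. Both genotypes received tamoxifen at 2 months of age, and 1 sciatic nerve was crushed 2 months later. Nerve distal to the crush and the nerve of the opposite side were collected at 5 d after crush (5 dpc), giving 3 control injured, 3 control contralateral, 3 RaptorKO injured, and 4 RaptorKO contralateral libraries. RNA came from nerve tissue after its outer sheath, the epineurium, had been removed with forceps. The deletion is targeted to SCs while the measurement covers every cell type in that tissue. Fewer cells of a type cannot be told apart from less RNA per cell.

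Library totals ranged from 8200460 to 13581800 counts. Rptor itself was 42.2 ± 6.80 CPM (TMM-scaled counts per 1000000; SD, n = 3) in control injured and 26.0 ± 2.72 (SD, n = 3) in RaptorKO injured nerves, and 49.4 ± 4.96 (SD, n = 3) and 24.5 ± 2.57 (SD, n = 4) in contralateral nerves. It was lower in RaptorKO libraries on both sides, with a log2 difference of -0.68 (SE 0.15, adjusted p = 0.0167) in injured and -1.0 (SE 0.12, adjusted p = 0.0005) in contralateral nerves by the quasi-likelihood test of edgeR. The injured call was lost without control injured replicate 1 (adjusted p = 0.0511), without control injured replicate 2 (adjusted p = 0.0882), and without RaptorKO injured replicate 1 (adjusted p = 0.0675). Both libraries numbered 3 among controls held at least 14462 counts of Xist, an RNA of the inactive X chromosome, against 4 to 17 in the other 11 libraries. RaptorKO contralateral replicate 3 stood apart in adipocyte markers, whose summed level was 285 CPM against 1.30 to 31.8 CPM in the other 3 libraries of its group.

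After a crush, axons beyond the lesion degenerate, and SCs lose their myelin program and become repair cells, a change that depends on the transcription factor c-Jun. Macrophages and other leukocytes enter the nerve at the same time. The 6 genes encode a set of mostly secreted or surface proteins. Clca3a2 belongs to the chloride channel accessory family, Gzmb encodes granzyme B, a serine protease of cytotoxic granules, and Sez6 encodes a neuronal surface protein shed by the protease BACE1. Itih5 encodes an inter-alpha-trypsin inhibitor heavy chain, a family that binds hyaluronan. Sostdc1 encodes a secreted antagonist of Wnt and BMP signals, and Ccdc80 encodes a secreted extracellular matrix protein.

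The upstream sequences of Gzmb and Itih5, whose courses over the groups differed, are shown. They come from RefSeq promoter entries (GRCm38.p6). Each sequence is the 250 bases before the annotated start, 5′ to 3′ on the strand of the gene, and capitals mark matches to TGANTCA, the palindromic motif bound by c-Jun and its partners in AP-1, which reads the same on both strands.

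Gzmb, chr14:56262335-56262584, minus strand: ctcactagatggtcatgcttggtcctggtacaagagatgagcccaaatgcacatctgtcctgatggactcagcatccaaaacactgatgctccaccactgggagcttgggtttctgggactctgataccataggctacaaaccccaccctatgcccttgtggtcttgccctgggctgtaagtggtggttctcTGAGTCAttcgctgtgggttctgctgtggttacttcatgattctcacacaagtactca

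Itih5, chr2:10153293-10153542, plus strand: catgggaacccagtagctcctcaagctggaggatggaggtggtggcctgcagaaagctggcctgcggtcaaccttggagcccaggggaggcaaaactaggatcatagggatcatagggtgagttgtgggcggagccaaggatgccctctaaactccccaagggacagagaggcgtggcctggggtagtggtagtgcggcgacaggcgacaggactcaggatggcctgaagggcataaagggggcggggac

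The motif occurred once before Gzmb, as TGAGTCA from 58 to 52 bases before the RefSeq start. That start lies upstream of the gene position given below (56262260 on the minus strand), from which the motif is farther away. The 250 bases before Itih5 did not hold these letters. Of 32851 RefSeq promoters of the same length, 6.75% held TGANTCA and 4.46% held its narrower forms TGACTCA or TGAGTCA. A match describes the sequence only. The search also ran over any promoter entries of the other 4 genes, whose sequences and matches are not shown. From the 2 genes shown, no link between the motif and a course can be read.

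Over the 13 libraries the genes followed 2 courses. Clca3a2, Gzmb, and Sez6 were low in contralateral nerves and higher in every crushed control nerve, and this higher level was largely missing in crushed RaptorKO nerves. Ccdc80 was likewise highest in the crushed control nerves, but its contralateral levels varied and reached 117.4 CPM in 1 RaptorKO library. Itih5 and Sostdc1 were already at a high level in contralateral nerves of both genotypes, stayed near that level in crushed control nerves, and were lower in crushed RaptorKO nerves. RaptorKO injured means were 3.33% (Gzmb), 4.16% (Clca3a2), 4.77% (Sez6), 14.5% (Sostdc1), 21.6% (Itih5), and 29.5% (Ccdc80) of the control injured means in CPM.

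**Figure D1:**
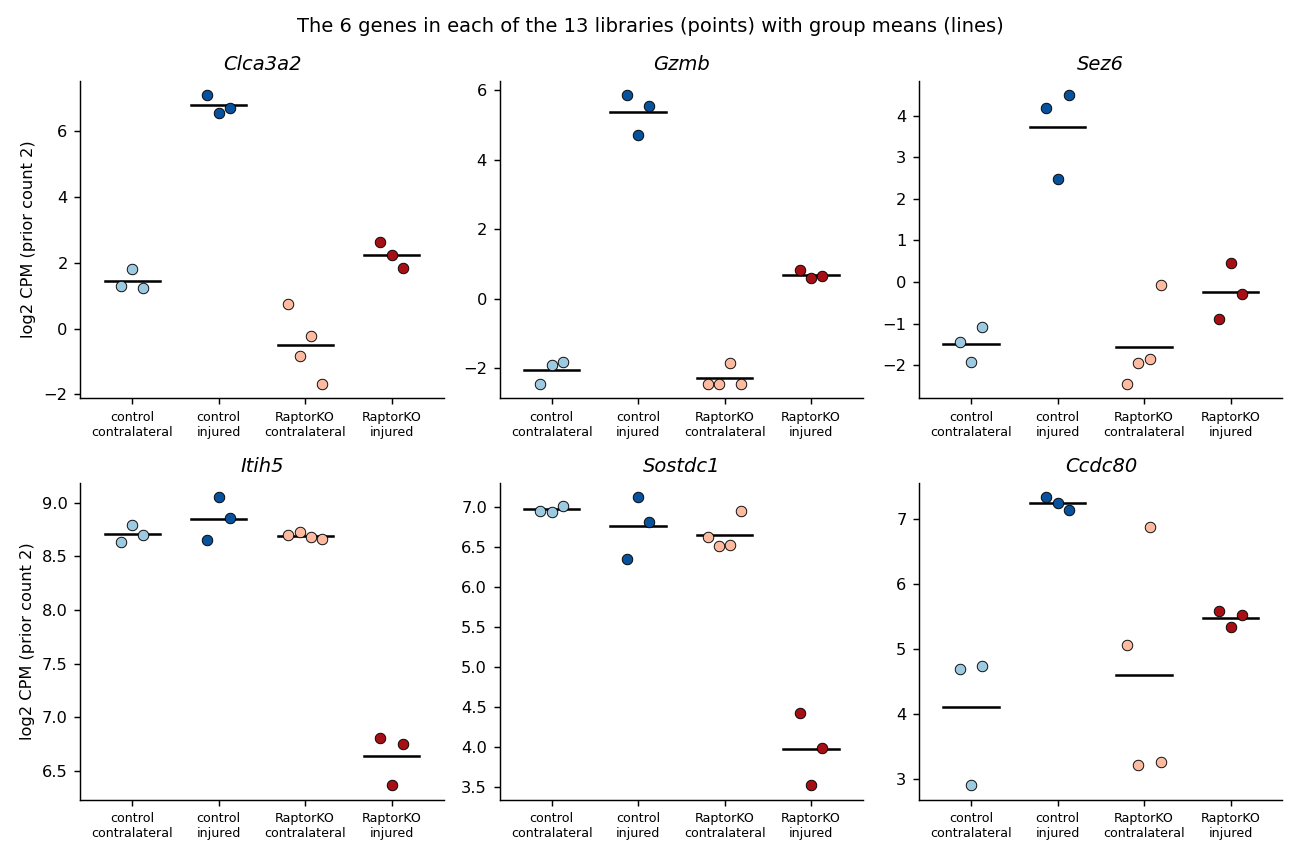
Level of each of the 6 genes in log2 CPM (prior count 2, vertical axis) in each library (points) of the 4 groups (horizontal axis), with group means as lines. In the panels of Clca3a2, Gzmb, Sez6, and Ccdc80 the control injured points sit highest, and in those of Itih5 and Sostdc1 the RaptorKO injured points sit lowest.

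Clca3a2 (ENSMUSG00000028262) lies on chromosome 3 of GRCm38 from 144796559 to 144819494 on the minus strand and has 14 merged exon blocks spanning 3974 bases. Its level was 2.27, 3.34, and 2.15 CPM in the control contralateral libraries and 135.8, 94.2, and 103.8 CPM in the control injured libraries. RaptorKO contralateral libraries held 1.49, 0.382, 0.667, and 0.129 CPM, and RaptorKO injured libraries held 5.95, 4.56, and 3.38 CPM. Crushed nerves exceeded contralateral nerves without overlap in both genotypes, but all 3 crushed RaptorKO nerves lay far below the lowest crushed control nerve. The log2 difference with injury was 5.38 (SE 0.20) in controls and 2.77 (SE 0.58) in RaptorKOs, and the genotype difference in injured nerves was -4.56 (SE 0.21).

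Of the other CLCA genes, Clca3a1 overlapped between the crushed genotypes, whereas Clca3b had the same order of the group means as Clca3a2 at far lower counts. Clca3a1 was 28.9, 34.6, and 48.3 CPM in control injured and 32.9, 55.0, and 34.7 CPM in RaptorKO injured nerves. It rose with injury in controls (log2 2.37, SE 0.21, adjusted p = 8.33e-07) and in RaptorKOs (log2 3.25, SE 0.36, adjusted p = 2.08e-05) and was not called different between injured genotypes (log2 0.15, SE 0.23, adjusted p = 0.785). Clca3b held 61, 49, and 58 counts in control injured and 20, 22, and 3 counts in RaptorKO injured libraries, and at most 1 count in any contralateral library. It was lower in RaptorKO injured nerves (log2 -2.02, SE 0.50, adjusted p = 0.0292), a call that was lost in a fit over all libraries (adjusted p = 0.0530), without control injured replicate 2 (adjusted p = 0.0667), and without RaptorKO injured replicate 1 (adjusted p = 0.0592). Of the 100-base windows of the Clca3a2 transcripts, 7.94% also occur in Clca3a1 or Clca3b, so reads there could be shared out among these genes. Clca1 and the pseudogene Clca4c-ps were at 0 in all libraries. An antisense gene, Gm43240, overlaps 241 exonic bases of Clca3a2 and held at most 1 count per library.

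Gzmb (ENSMUSG00000015437; chromosome 14, 56258838 to 56262260, minus strand, 5 exon blocks) was the lowest of the 6 genes before injury. Control contralateral libraries held 0, 1, and 1 counts, and RaptorKO contralateral libraries held 0, 0, 1, and 0 counts. Control injured libraries held 626, 284, and 471 counts, equal to 57.2, 26.0, and 46.1 CPM. RaptorKO injured libraries held 18, 17, and 15 counts, equal to 1.60, 1.34, and 1.37 CPM. The gene was thus near the limit of detection in all 7 contralateral nerves, present in all 6 crushed nerves, and much higher in the crushed nerves of controls. With a floor of 3 counts per contralateral library, its mean was at least 160-fold higher after crush in controls and at least 4.70-fold higher in RaptorKOs. The genotype difference in injured nerves was -4.88 on the log2 scale (SE 0.32), and only the predicted gene Gm37416 (log2 -5.50, SE 0.69) had a larger decrease among the 12040 genes tested.

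The other granzyme genes, and Prf1, were far below Gzmb in control injured nerves. Prf1, which encodes the pore-forming protein that delivers granzymes into target cells, held 3, 1, and 0 counts in control injured and 7, 6, and 13 counts in RaptorKO injured libraries. Gzma held 18, 5, and 14 counts in control injured and 15, 6, and 9 in RaptorKO injured libraries. Gzmd, Gzmf, Gzmg, and Gzmn were at 0 in every library, and Gzmc, Gzme, and Gzmk never exceeded 3 counts. Of 19 other genes on the granzyme and cytotoxic granule list, 5 were tested in injured nerves and none was called by edgeR's quasi-likelihood test. Ctsc, the protease that activates granzymes, rose with injury in controls (log2 1.41, SE 0.12, adjusted p = 6.69e-07) and in RaptorKOs (log2 1.21, SE 0.23, adjusted p = 0.000931). The summed level of 18 T and NK cell markers ranged from 14.8 to 30.5 CPM in control injured and from 17.1 to 26.4 CPM in RaptorKO injured nerves, with 3 of the 18 at 0 in all control injured libraries and 1, the T cell receptor subunit gene Cd3d, at 0 in both groups. The sums held different genes, named here after their values were seen. Cd4 was at 8.03 to 23.0 CPM in control injured and 4.95 to 8.69 CPM in RaptorKO injured nerves. Trac (0 to 0.642 against 1.02 to 2.38 CPM), Klrk1 (1.10 to 2.25 against 2.83 to 4.89 CPM), and Lck (0.881 to 0.917 against 1.42 to 3.02 CPM) were higher in RaptorKO injured nerves. Of the 18 markers, 1 was tested between injured genotypes, and it was not called. Trac, Klrk1, and Lck were too low to be tested.

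Sez6 (ENSMUSG00000000632; chromosome 11, 77930800 to 77979048, plus strand, 16 exon blocks) was the least abundant of the 6 genes in crushed nerves. Control contralateral libraries held 2, 1, and 3 counts and RaptorKO contralateral libraries held 0, 1, 1, and 6 counts. Control injured libraries held 18.0, 5.41, and 22.2 CPM, from 197, 59, and 227 counts. RaptorKO injured libraries held 0.355, 1.18, and 0.640 CPM, from 4, 15, and 7 counts. All crushed control nerves were above all other nerves, whereas crushed and contralateral nerves of RaptorKO mice overlapped. The mean after crush in controls was at least 56.3-fold higher than a floor of 3 counts per contralateral library. The genotype difference in injured nerves was -4.33 (log2, SE 0.57), and it ranged from -4.90 without RaptorKO injured replicate 2 to -3.95 without control injured replicate 3.

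Other genes tied to SEZ6 moved in both directions after crush. Sez6l2, which encodes a relative of SEZ6, fell with injury in controls (log2 -2.71, SE 0.49, adjusted p = 0.000393). It was too low to be tested between injured nerves. Bace1, the protease that sheds SEZ6, fell with injury in controls (log2 -1.0, SE 0.09, adjusted p = 1.03e-06) and in RaptorKOs (log2 -0.79, SE 0.10, adjusted p = 4.43e-05), with no call between injured genotypes (log2 0.04, SE 0.11, adjusted p = 0.907). Chl1, a cell adhesion molecule that BACE1 also cleaves, was the member of this list with the smallest p in injured nerves. It held 331, 286, and 273 CPM in control injured and 152, 165, and 170 CPM in RaptorKO injured nerves (log2 -0.86, SE 0.11, adjusted p = 0.0014). Like Sez6 it rose with injury in controls (log2 0.62, SE 0.10, adjusted p = 0.000194), while in RaptorKOs it did not reach the fold needed for a call (log2 0.23, SE 0.09, adjusted p = 0.0376), and the injury effects were not called different (adjusted p = 0.114). Csmd1, which encodes a membrane protein with CUB and sushi domains like those of SEZ6, was also lower (log2 -0.72, SE 0.15, adjusted p = 0.0146), a call lost without control injured replicate 1 (adjusted p = 0.0597) or RaptorKO injured replicate 1 (adjusted p = 0.0672).

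Itih5 (ENSMUSG00000025780; chromosome 2, 10153571 to 10256529, plus strand, 14 exon blocks) was the most highly counted of the 6 genes. Control contralateral libraries held 395.8, 443.3, and 415.4 CPM and RaptorKO contralateral libraries held 416.7, 424.2, 409.8, and 405.3 CPM. Control injured libraries held 401.5, 530.5, and 462.4 CPM. RaptorKO injured libraries held 111.9, 82.3, and 107.4 CPM. Crushed and contralateral control nerves overlapped, and the crushed RaptorKO nerves lay below every other nerve. The log2 difference with injury was 0.13 (SE 0.12) in controls and -2.05 (SE 0.12) in RaptorKOs. Between injured genotypes it was -2.20 (SE 0.15), and the difference between the injury effects was -2.19 (SE 0.17).

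The other heavy chain genes were low or variable. Itih1 never exceeded 3 counts and Itih2 ranged from 1.65 to 176 CPM over the 13 libraries with the highest value in RaptorKO contralateral replicate 3. Among 14 tested genes of the ITIH and hyaluronan list, 9 rose and 1 fell with injury in controls, and 9 rose and 2 fell in RaptorKOs. Of all genes tested, 32.4% were called higher and 32.9% lower with injury in controls, and 30.5% and 28.5% in RaptorKOs. Hyal1, a hyaluronan-degrading enzyme, rose in controls (log2 2.71, SE 0.21, adjusted p = 3.44e-07) and in RaptorKOs (log2 2.89, SE 0.20, adjusted p = 7.51e-07). Between injured genotypes, 1 of the 14 was lower and none higher. This was Hmmr, a hyaluronan receptor gene also used in mitosis, which held 95.4, 71.7, and 84.4 CPM in control injured and 41.3, 35.5, and 41.3 CPM in RaptorKO injured nerves (log2 -1.08, SE 0.13, adjusted p = 0.000896). Cd44, the main hyaluronan receptor, rose with injury in controls (log2 3.97, SE 0.11, adjusted p = 1.03e-10) and in RaptorKOs (log2 3.30, SE 0.12, adjusted p = 8.89e-09).

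Sostdc1 (ENSMUSG00000036169; chromosome 12, 36314139 to 36318452, plus strand, 2 exon blocks) had the same course as Itih5 at a lower count. Control contralateral libraries held 124.0, 123.1, and 128.9 CPM and RaptorKO contralateral libraries held 98.8, 91.5, 91.9, and 124.0 CPM. Control injured libraries held 81.7, 139.4, and 112.1 CPM. RaptorKO injured libraries held 21.4, 11.3, and 15.7 CPM. Again crushed and contralateral nerves overlapped in controls, and crushed RaptorKO nerves were below all others. The log2 difference with injury was -0.20 (SE 0.15) in controls and -2.66 (SE 0.21) in RaptorKOs, and the genotype difference in injured nerves was -2.77 (SE 0.24). The log2 CPM values of Sostdc1 and Itih5 had a Pearson's r of 0.985 over the 13 libraries and of 0.813 after the group means were subtracted, given as a description since the genes share libraries and groups.

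Of 27 tested genes on the list of Wnt and BMP antagonists, receptors, and targets, 18 fell and 6 rose with injury in controls, and of 30 tested in RaptorKOs, 17 fell and 5 rose, beside 32.9% and 28.5% of all genes that fell. Whether the list differed from other genes was not tested. Chrdl1, a secreted BMP antagonist, fell by 4.19 on the log2 scale (SE 0.18, adjusted p = 1.62e-09) in controls. Wif1, a secreted Wnt inhibitor, was an exception: it held at most 5 counts in any contralateral library, 42.5, 39.2, and 28.6 CPM in control injured, and 52.0, 27.0, and 55.5 CPM in RaptorKO injured nerves. It was not called between injured genotypes (log2 0.30, SE 0.24, adjusted p = 0.546), except without RaptorKO injured replicate 2 (log2 0.56, adjusted p = 0.0485). Sost, the closest relative of Sostdc1, and Dkk1 were at 0 in all libraries.

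Of 28 genes on this list tested between injured genotypes, 3 were lower and none higher in RaptorKO nerves. Nkd1, an intracellular Wnt inhibitor that is itself a Wnt target, held 49.1, 71.9, and 60.4 CPM in control injured and 27.2, 24.0, and 19.8 CPM in RaptorKO injured nerves (log2 -1.34, SE 0.17, adjusted p = 0.00116). In contralateral nerves it did not pass the test (log2 -0.02, SE 0.10, adjusted p = 0.914), and its injury effects differed between genotypes (log2 -1.31, SE 0.20, adjusted p = 0.00366), as called for 2.47% of 12851 genes. The common Wnt target Axin2 was not called between injured genotypes (log2 -0.13, SE 0.21, adjusted p = 0.793). Frzb, a secreted Wnt-binding protein, was lower in RaptorKO nerves on both sides, with a log2 difference of -1.20 (SE 0.16, adjusted p = 0.0014) in injured and -1.32 (SE 0.12, adjusted p = 0.00011) in contralateral nerves. Bmpr1a, a BMP receptor, was lower in injured nerves (log2 -0.59, SE 0.11, adjusted p = 0.00947), but not without RaptorKO injured replicate 1 (adjusted p = 0.0526).

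Ccdc80 (ENSMUSG00000022665; chromosome 16, 45093402 to 45128077, plus strand, 9 exon blocks) spanned a wide range among contralateral nerves. Control contralateral libraries held 25.8, 7.33, and 26.5 CPM and RaptorKO contralateral libraries held 33.5, 9.16, 117.4, and 9.41 CPM. Control injured libraries held 162.1, 153.1, and 141.4 CPM. RaptorKO injured libraries held 48.2, 40.6, and 45.8 CPM. Crushed control nerves were above all other nerves, and the crushed RaptorKO nerves lay below them by 1.75 on the log2 scale (SE 0.11, n = 3 per group). The log2 difference with injury was 2.92 (SE 0.32) in controls and 0.07 (SE 0.72) in RaptorKOs.

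A single library decided the injury difference of Ccdc80 in RaptorKO mice. Without RaptorKO contralateral replicate 3 it was 1.36, since the other 3 contralateral libraries were all below the crushed ones. That library also had the highest summed level of adipocyte (285 CPM), perineurial (935 CPM against 357 to 642 CPM in the other 3), and fibroblast markers (12673 CPM) in its group, and whether this accounts for its Ccdc80 value was not tested. Of the related matrix genes, Srpx was 37.6, 26.2, and 20.9 CPM in control injured and 60.9, 28.6, and 64.4 CPM in RaptorKO injured nerves, and neither Srpx (log2 0.87, SE 0.28, adjusted p = 0.0837) nor Srpx2 (log2 0.77, SE 0.33, adjusted p = 0.201) was called, although Srpx was called without RaptorKO injured replicate 2 (log2 1.16, adjusted p = 0.00228) and with DESeq2 (adjusted p = 0.0102).

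**Figure D2:**
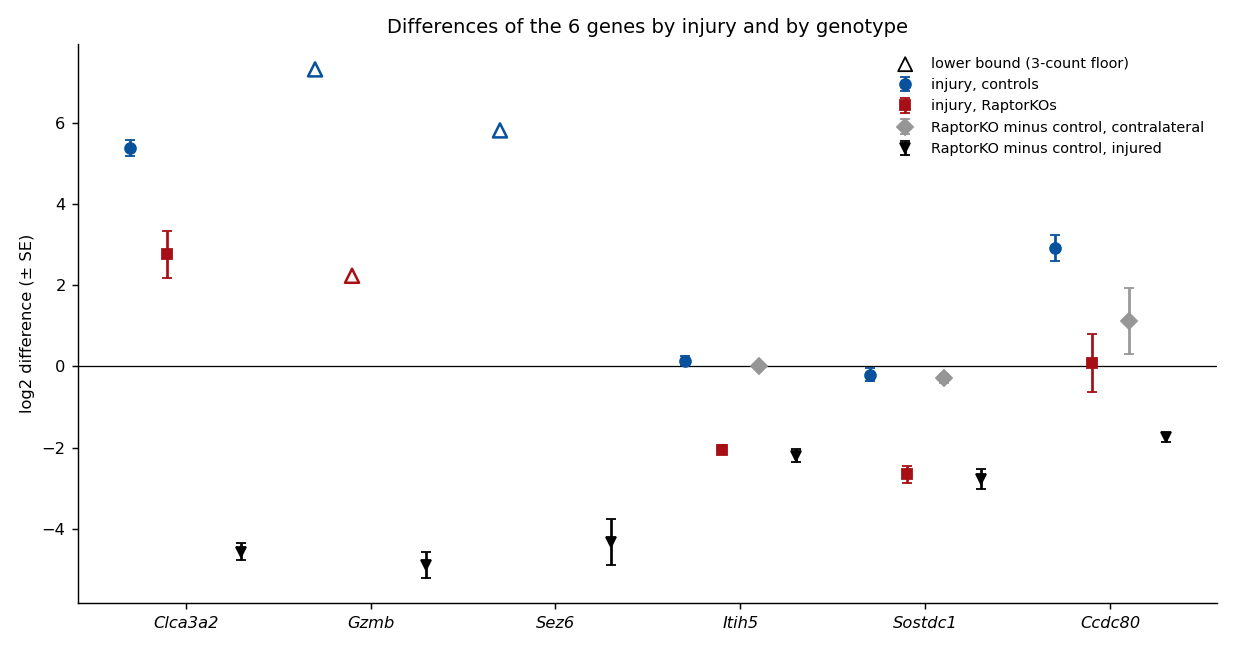
Log2 differences (vertical axis) of each gene with injury in controls (circles) and in RaptorKOs (squares), and between genotypes in contralateral (diamonds) and injured nerves (inverted triangles); bars are SE, and open triangles are lower bounds against a floor of 3 counts per library. Itih5 and Sostdc1 lie near 0 with injury in controls (0.13 and -0.20) and at -2.05 and -2.66 in RaptorKOs, and points are absent where a gene was too low for the fit.

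All 6 genes were lower in RaptorKO injured nerves without overlap of libraries, which held for 14.6% of the 12040 genes tested, and each was among the 4.44% called lower, against 4.09% called higher. Because this contrast chose the genes, nothing is read from these counts. Without control injured replicate 3, the crushed library with high Xist, the genotype differences were -4.83 (Gzmb), -4.62 (Clca3a2), -3.95 (Sez6), -2.77 (Sostdc1), -2.20 (Itih5), and -1.80 (Ccdc80) on the log2 scale. With all 6 injured libraries they ranked 2 to 4 (Gzmb, Clca3a2, and Sez6), 7 (Sostdc1), 11 (Itih5), and 21 (Ccdc80) by the size of the decrease. Prl2c2 was at rank 12 just after Itih5 (log2 -2.15), and Epha5 was at rank 20 just before Ccdc80 (log2 -1.82). With injury in controls, 4 of the 6 genes were higher without overlap and 2 overlapped, where 36.2% of genes were higher and 34.7% lower without overlap, and 32.4% and 32.9% were called higher and lower. With injury in RaptorKOs, Clca3a2 and Gzmb were higher without overlap, Itih5 and Sostdc1 lower, and Sez6 and Ccdc80 overlapped. There 31.7% of all genes were higher and 28.8% lower without overlap. Both injury contrasts use the injured libraries that chose the genes.

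The contralateral nerves gave the only comparison independent of the choice. No member was called different between genotypes by edgeR's quasi-likelihood test, where 5.68% of 11878 genes were called lower and 4.49% higher. Of the 6 genes, 3 passed the count filter there, and 1 of them, Sostdc1, had an unadjusted p under 0.05 in edgeR (log2 -0.29, SE 0.11, unadjusted value 0.0264, adjusted p = 0.137). DESeq2 and the exact test of edgeR called none of the 3. Itih5 differed by 0.00 on the log2 scale (SE 0.07, adjusted p = 0.986) and Ccdc80 by 1.11 (SE 0.81, adjusted p = 0.447), which became -0.18 without RaptorKO contralateral replicate 3 (adjusted p = 0.892). Leaving out RaptorKO contralateral replicate 4 turned the Sostdc1 difference into a call (log2 -0.40, adjusted p = 0.00821).

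Clca3a2 did not pass the filter in contralateral nerves, but its libraries did not overlap. The 3 control libraries together held 88 counts and the 4 RaptorKO libraries 27 counts, and each RaptorKO library was below each control library, which held for 13.7% of tested genes. The difference in mean log2 CPM was -1.94, with p = 0.0571 in an exact two-sided permutation test over libraries, in which 35 splits allow no p below 0.0286. With a filter of 10 counts in 2 libraries the quasi-likelihood test gave a log2 difference of -1.93 (SE 0.63, adjusted p = 0.0923), and with no filter one of -1.94 (SE 0.62, adjusted p = 0.0703). In a fit over all 13 libraries, which share 1 estimate of the spread, the difference was called (log2 -1.95, SE 0.43, adjusted p = 0.0101). Clca3a2 passed the filter of that fit only through injured libraries, which chose the genes and also entered the spread. That call is therefore not independent of the choice, and nothing is read from it. The exact permutation p over the 6 tests was 0.0857 for Sostdc1, 0.371 for Gzmb, 0.686 for Ccdc80, 0.8 for Itih5, and 0.943 for Sez6, not adjusted for their number. The counts of Gzmb and Sez6 in these nerves (3 and 14 over all 7 libraries) were too few to detect a difference.

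Per kilobase of exon, Sostdc1 and Itih5 had the highest levels in contralateral nerves. Sostdc1 was at 70.4 ± 1.77 and Itih5 at 52.9 ± 3.03 CPM per kb in control contralateral nerves (SD, n = 3), and their ranges did not overlap. In control injured nerves Sostdc1 was at 62.4 ± 16.2 and Itih5 at 58.8 ± 8.17 CPM per kb (SD, n = 3), which overlapped. Ccdc80 (35.4 ± 2.42), Gzmb (30.0 ± 11.0), and Clca3a2 (28.0 ± 5.49) followed below them and overlapped with each other, and Sez6 was last at 2.63 ± 1.51 CPM per kb (SD, n = 3 each). In RaptorKO injured nerves Itih5 (12.7 ± 2.02), Ccdc80 (10.5 ± 0.896), and Sostdc1 (9.07 ± 2.84) were close together (CPM per kb, SD, n = 3 each), and the other 3 genes were at 1.17 or below.

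In the families as a whole, 112 other genes were listed and 57 were tested in injured nerves. Of these, 7 were lower in RaptorKO injured nerves and none was higher by edgeR's quasi-likelihood test, whereas DESeq2 and the exact test of edgeR each called 2 higher. Over all genes tested, 4.44% were called lower and 4.09% higher. Without RaptorKO injured replicate 1 the lower genes numbered 4, and without RaptorKO injured replicate 2 there were 3 higher genes. The median log2 difference of the 57 genes was -0.02, beside 0.00 for all genes tested. In contralateral nerves 7 of 56 were lower and 4 higher, where 5.68% and 4.49% of all genes were called. The lower genes there were Dkk3 (log2 -1.57, SE 0.12), Frzb, Chrdl1 (log2 -0.59, SE 0.08), Bmp7 (log2 -0.56, SE 0.09), Chl1 (log2 -0.45, SE 0.07), Sez6l2 (log2 -0.98, SE 0.27), and Serpinb6b (log2 -0.61, SE 0.16), and the higher genes were Lyve1 (log2 1.79, SE 0.32), Srpx (log2 0.96, SE 0.18), Stab1 (log2 0.62, SE 0.16), and Cd44 (log2 0.54, SE 0.14). In the same nerves the summed macrophage markers were at 139.8 to 159.9 CPM in controls and 221.7 to 293.7 CPM in RaptorKOs (4 of 7 tested markers called higher), and the fibroblast markers at 6529 to 7428 and 9530.4 to 12673 CPM (3 of 10 called higher). Their part in these calls was not tested. The contralateral calls of Sez6l2, Stab1, Cd44, and Serpinb6b were lost when single libraries were left out. This happened for Sez6l2 without any control library or RaptorKO replicate 1, 3, or 4 (adjusted p up to 0.132) and for Stab1 without any control library or RaptorKO replicate 2 or 4 (adjusted p up to 0.118). It happened for Cd44 without any control library or RaptorKO replicate 1 (adjusted p up to 0.117). For Serpinb6b it happened without control replicate 1 or 2 or RaptorKO replicate 1 or 3 (adjusted p up to 0.157). The call of Sez6l2 was also lost with no filter on low counts (adjusted p = 0.0716). In a fit over all 13 libraries those of Sez6l2 (adjusted p = 0.119) and Stab1 (adjusted p = 0.124) were lost. Without control replicate 3, 2 family genes were higher in contralateral nerves. With injury in controls 25 of 57 fell and 20 rose, beside 32.9% and 32.4% of all genes.

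**Figure D3:**
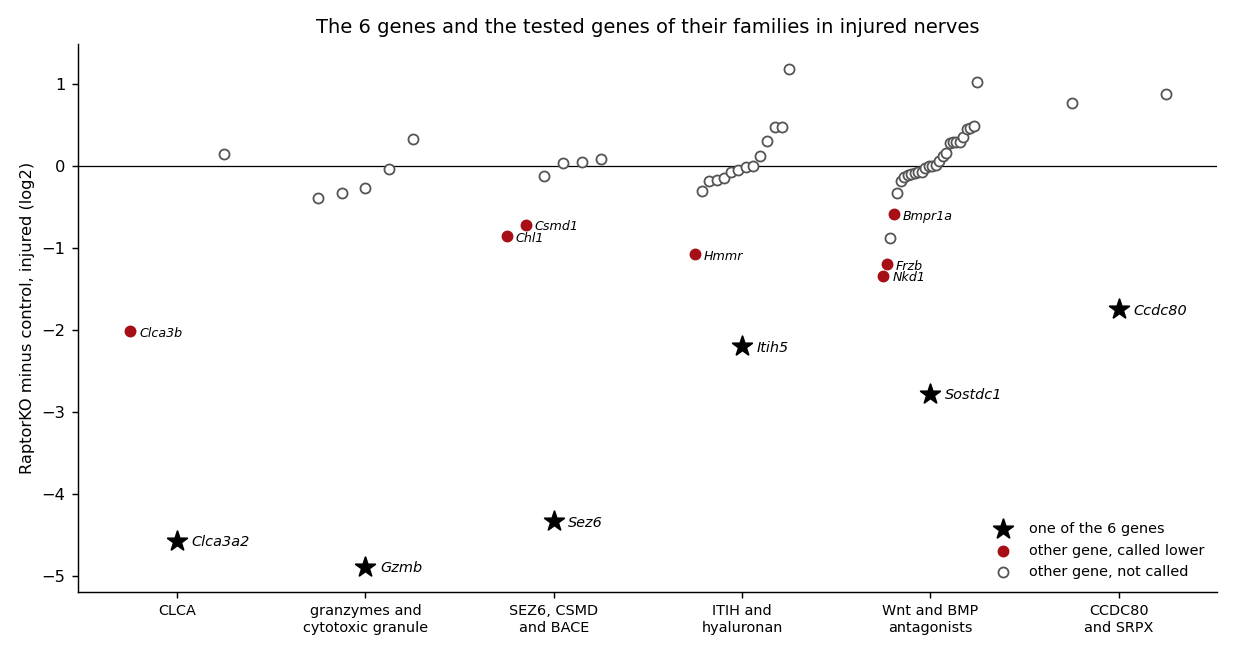
Log2 difference between RaptorKO and control injured nerves (vertical axis) for the tested genes of each family list (horizontal axis); stars are the 6 genes, filled points other genes called lower, and open points genes not called. The 6 genes lie between -4.88 and -1.75, and the lowest other gene is Clca3b at -2.02.

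The genes most alike to each of the 6 were ranked by Pearson's r of log2 CPM over the 13 libraries among 12845 other genes, which describes a shared pattern over 4 groups and carries no test. Nkd1 was the most alike to both Itih5 (r = 0.964) and Sostdc1 (r = 0.967). Matn2 (r = 0.963) and Trpm3 (r = 0.933) followed for Itih5, and Trpm3 (r = 0.954) and Lgi1 (r = 0.954) for Sostdc1. Within groups the r with Itih5 was 0.389 for Nkd1, -0.358 for Matn2, and 0.712 for Trpm3, and the r with Sostdc1 was 0.602 for Nkd1 and 0.743 for Trpm3. Matn2, which encodes a matrix protein, averaged 398.7 CPM in control injured and 257.9 CPM in RaptorKO injured nerves, against 393.0 and 380.7 CPM in the contralateral groups. Lgi1, which encodes a secreted protein of glia and neurons, averaged 30.0 and 4.57 CPM in the injured groups.

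Gzmb was most alike to Epha5 (r = 0.978), an ephrin receptor gene that averaged 8.71 CPM in control contralateral, 126.3 CPM in control injured, and 35.4 CPM in RaptorKO injured nerves, followed by Calm2 (r = 0.974) and Slc25a51 (r = 0.972). Clca3a2 was most alike to Parp14 (r = 0.965), Stard13 (r = 0.962), and Ei24 (r = 0.956). Sez6 was most alike to Dhx32 (r = 0.949), Edil3 (r = 0.939), and Sytl2 (r = 0.937), with an r of 0.745 to 0.798 within groups. Within groups the likeness of the top genes of Clca3a2 and Gzmb was weak (r from -0.274 to 0.348), so their order rests on the group means. For Ccdc80, C1qtnf1 (r = 0.959), the matrix gene Postn (r = 0.959), and the Wnt receptor gene Fzd1 (r = 0.945) kept an r of 0.957, 0.931, and 0.917 within groups. This r rests largely on contralateral nerves. Ccdc80 ranged from 3.22 to 6.88 log2 CPM in RaptorKO contralateral but only from 5.35 to 5.60 in RaptorKO injured libraries. RaptorKO contralateral replicate 3, which stood apart in adipocyte markers, was highest in its group for Ccdc80 and each of these genes.

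**Figure D4:**
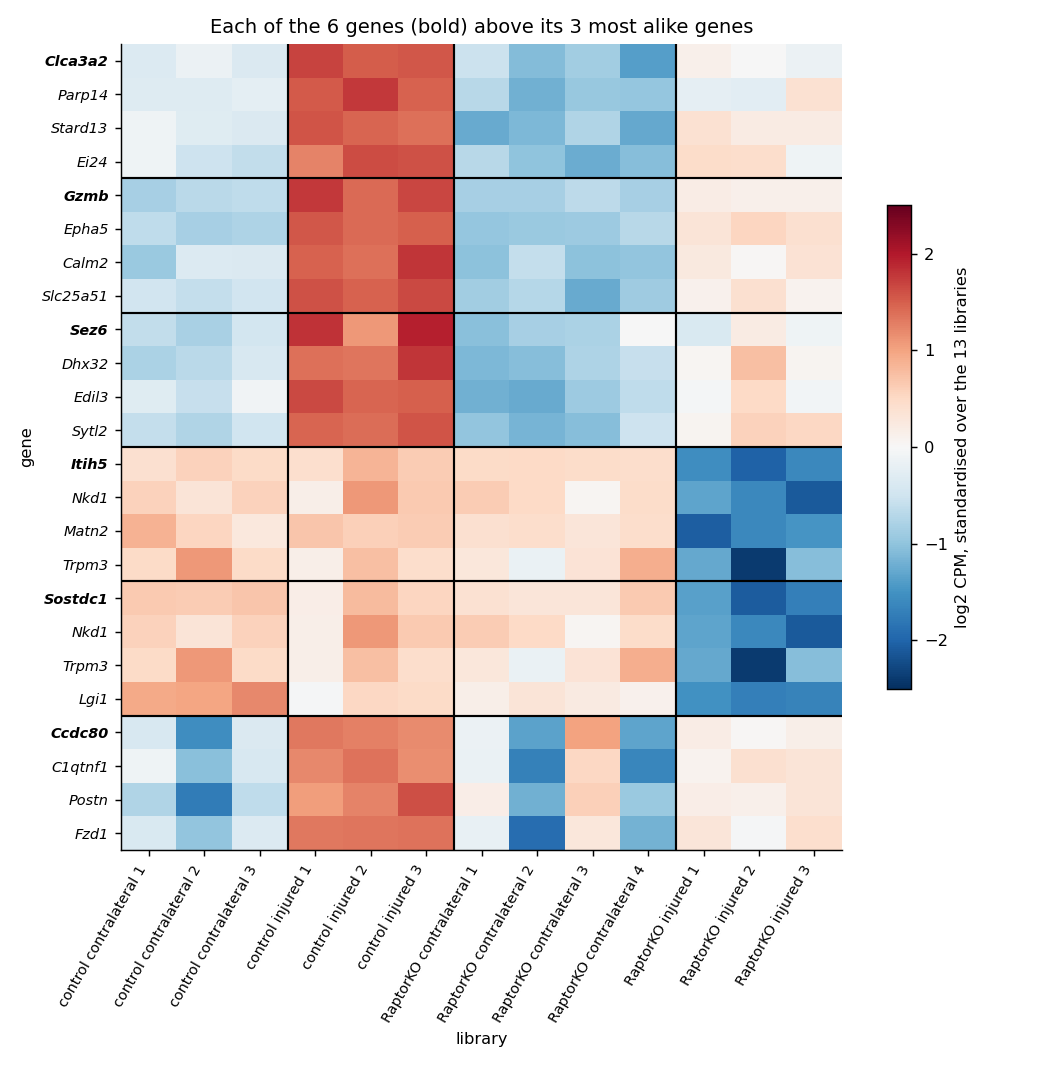
Log2 CPM standardised over the 13 libraries (color) for each of the 6 genes and, below it, the 3 genes with the highest r (vertical axis) in each library (horizontal axis). Clca3a2, Gzmb, Sez6, and Ccdc80 with their neighbours are highest in the 3 control injured libraries, and Itih5 and Sostdc1 with theirs are lowest in the 3 RaptorKO injured libraries.

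Markers of other cells were compared beside these differences. The summed level of 5 Schwann lineage markers was 1789.7 to 1902 CPM in control injured and 1084 to 1451 CPM in RaptorKO injured nerves. In contralateral nerves it was 2332 to 2360 CPM and 1233 to 1559 CPM. Of the 5 markers, 2 were called lower in injured and 3 in contralateral nerves, beside 4.44% and 5.68% of all genes. Of the 6 genes in contralateral nerves, Clca3a2 lay below all controls in 4 of 4 RaptorKO libraries, as did 13.7% of tested genes. Sostdc1 did so in 3, Sez6 in 2, and Gzmb, Itih5, and Ccdc80 in 0. The 2 Sez6 libraries held 0 and 1 counts against 1 to 3 in controls, too few to order them. Repair SC markers summed to 2387 to 2776 CPM in control injured and 1921 to 2515 CPM in RaptorKO injured nerves. The largest part was Ngfr (1447 to 1780 and 1245 to 1624 CPM), so the sum says little on the other markers. Of 9 tested, 1 was called lower and 0 higher. Macrophage markers ranged from 2449 to 3028 CPM and from 1549 to 3259 CPM. Neutrophil markers ranged from 42.9 to 52.1 CPM and from 22.2 to 40.4 CPM, with the defining neutrophil gene Ly6g at 0. Of the 7 neutrophil markers 1 was tested, and it was not called. Mast cell markers were higher in RaptorKO injured (111 to 206 CPM) than in control injured nerves (8.90 to 54.3 CPM). They were also higher in RaptorKO contralateral (84.9 to 148.5 CPM) than in control contralateral nerves (14.2 to 61.6 CPM). Of those tested, 5 of 6 were called higher in injured and 2 of 5 in contralateral nerves, beside 4.09% and 4.49% of all genes. Plasmacytoid dendritic cell markers summed to at most 2.84 CPM in either injured group. Fibroblast markers ranged from 6400 to 9257 CPM in control injured and from 8189 to 12913 CPM in RaptorKO injured nerves. Vessel and perineurial markers summed higher in RaptorKO injured than in control injured nerves, where 4.09% of all genes tested were called higher. Pericyte and smooth muscle cell markers summed to 957 to 1272 against 497 to 585 CPM (6 of 7 tested called higher), endothelial markers to 406 to 643 against 227 to 339 CPM (6 of 6), and perineurial markers to 179.6 to 229.8 against 125 to 162 CPM (1 of 4). The part of these cell types in the differences of the 6 genes was not tested.

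**Figure D5:**
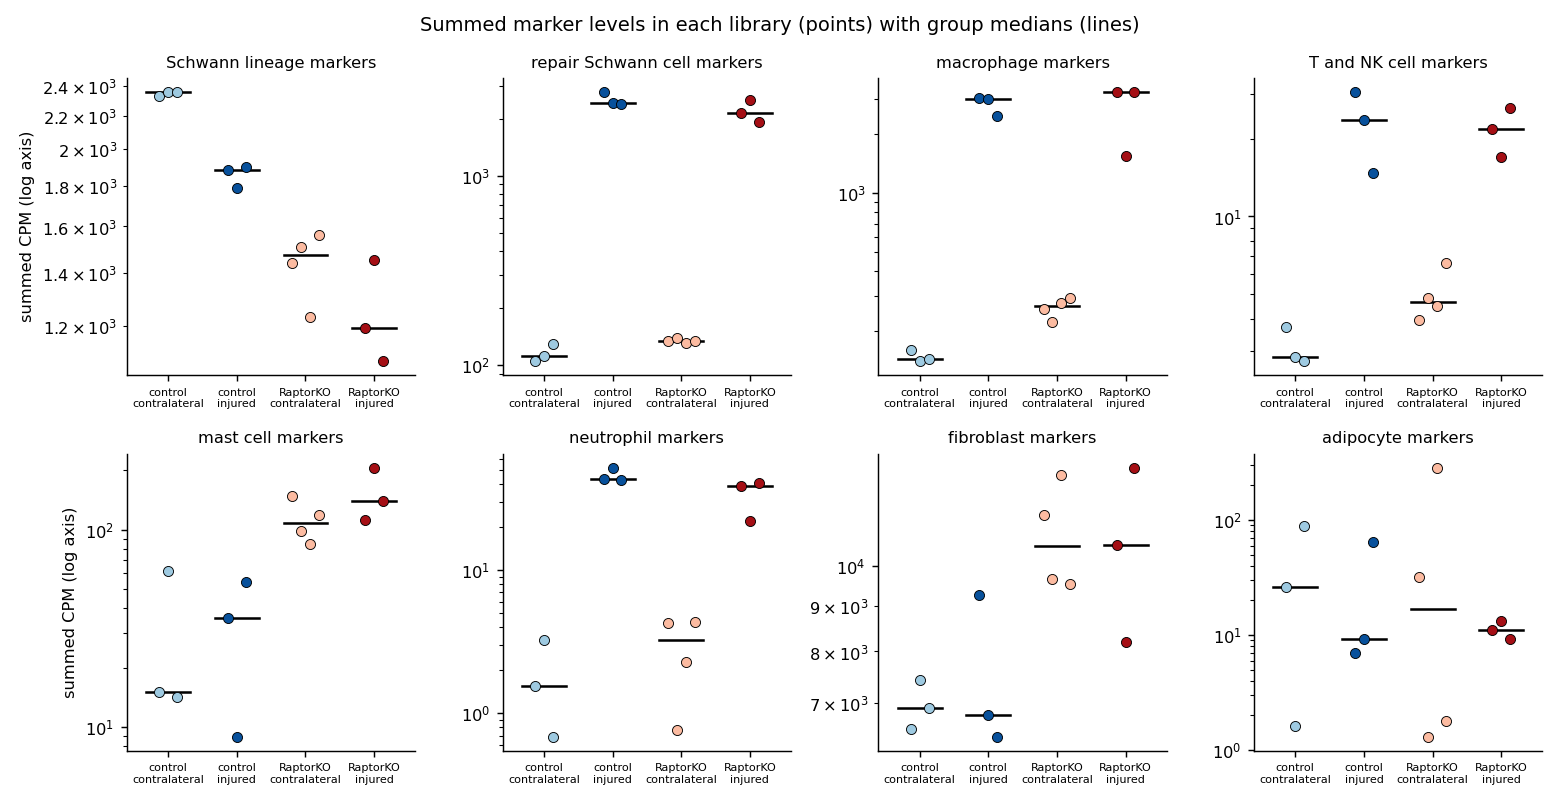
Summed CPM of 8 marker lists (vertical log axis) in each library (points) of the 4 groups (horizontal axis), with group medians as lines. Schwann lineage markers are lower in both RaptorKO groups (1084 to 1559 CPM) than in both control groups (1789.7 to 2360 CPM), and T and NK cell markers overlap between the injured groups.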

How the data were processed

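Nerve RNA was sequenced from 13 libraries with a stranded mRNA kit. The authors trimmed the reads with Trimmomatic, aligned them to GRCm38, quantified genes with RSEM 1.2.22, and deposited 1 table of expected counts for all libraries. Whether counting used the strand is not given in the sources used here. The expected counts were rounded to whole numbers and tested in R 4.3.3 with edgeR 4.0.16 (quasi-likelihood test, limma 3.58.1 underneath), with TMM scaling and Benjamini-Hochberg adjustment over all genes tested. A gene was tested with at least 50 counts in 2 libraries that were compared, and calls needed an adjusted p under 0.05 and a fold over 1.2. CPM used TMM factors, and log2 CPM a prior count of 2. Symbols and positions came from GENCODE M21, which matched 40634 of 40787 gene IDs, and figures were drawn with matplotlib 3.10.9.

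The 6 genes, the family and marker lists, and the tests were chosen with earlier results of these data known. Besides the 6 genes and Rptor, the text names up to 4 called genes per family list and genotype comparison by the smallest p, the 3 genes most alike to each of the 6, and paralogs or list genes by their status. Clca3a1, Ctsc, Bace1, Hyal1, Wif1, Axin2, Srpx2, and Fst, and the injury changes of other list genes, were named after their values were seen. Alternatives were DESeq2 1.42.0, the exact test of edgeR that the study used, RLE scaling, other count filters, a fit over all libraries, a replicate block, and leaving out each library. All p-values measure the spread between these libraries, and floors cover counting error only. The test was checked on simulated data. No value column was without a sample. Beyond those given, 1 further marker gene and 1 further upstream sequence were left out and are not reported here.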

Additional observations from a re-analysis of the deposited data

Results flagged for a closer look

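With 4 libraries in the RaptorKO contralateral group, a single library stood far from the other 3 for 3 of 35 quantities checked, where chance alone singles out about 1 in 20. Gzmb was at 0.0954 CPM, which is 1 count, in replicate 3 and at 0 in the others, where any single count would meet the criterion, so it does not set that library apart. Sez6 was at 0.773 CPM, which is 6 counts, in replicate 4 and at 1 count or fewer in the others. The summed adipocyte markers reached 285 CPM in replicate 3, the library that also held the highest Ccdc80 level. Ccdc80 itself was not far enough from the others to pass the same criterion.

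The injury effect differed between genotypes for 5 of 61 family genes tested for it, named after their values were seen, where 2.47% of 12851 genes were called by edgeR's quasi-likelihood test. It was lower (less positive or more negative) in RaptorKOs for Nkd1 (log2 -1.31, SE 0.20, adjusted p = 0.00366), Cd44 (log2 -0.69, SE 0.16, adjusted p = 0.0319), Hmmr (log2 -2.10, SE 0.50, adjusted p = 0.0386), and Fst (log2 -2.65, SE 0.65, adjusted p = 0.0449), and higher for Dkk3 (log2 1.25, SE 0.23, adjusted p = 0.00987). Dkk3, a secreted protein of the Dickkopf family, fell with injury in both genotypes, from 139 to 27.4 CPM in controls and from 46.2 to 21.8 CPM in RaptorKOs. Fst, which encodes the activin and BMP antagonist follistatin, averaged 3.83 and 2.39 CPM in contralateral and injured controls and 6.43 and 0.626 CPM in RaptorKOs. The 5 calls became 2 without control contralateral replicate 2 or 3, control injured replicate 1 or 2, RaptorKO contralateral replicate 1, or RaptorKO injured replicate 2, and 3 without control contralateral replicate 1, RaptorKO contralateral replicate 3, or RaptorKO injured replicate 1. The calls of Nkd1 and Dkk3 held without any 1 library. Those of Cd44, Hmmr, and Fst were lost without any of 7, 12, and 11 libraries, with adjusted p up to 0.0821 (without control contralateral replicate 3), 0.124, and 0.115 (both without control contralateral replicate 1).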

How the results depend on the processing

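The 6 genes were lower in RaptorKO injured nerves under all 13 alternatives. This contrast chose the genes, so nothing is read from that count. Of 256 recomputed log2 differences of the 6 genes, 253 moved by less than 1 SD between replicates and none of the called ones turned. The exceptions were the injury difference of Ccdc80 in RaptorKOs (1.36 without RaptorKO contralateral replicate 3) and the differences between injury effects of Ccdc80 (-1.58 without the same library) and Clca3a2 (-1.96 without RaptorKO contralateral replicate 1). In contralateral nerves 0 of the 6 genes were called, but 1 (Clca3a2, adjusted p = 0.0101) in a fit over all 13 libraries and 0 to 1 when a library was left out. The fit over all 13 libraries held the injured libraries that chose the genes, so its call is not independent of the choice. Family genes called lower in injured nerves numbered 7, and 4 to 7 with a library left out. Those called higher numbered 0, but 2 with DESeq2, 2 with the exact test of edgeR, 3 with no filter on low counts, and 0 to 3 with a library left out. Among them Srpx was called with DESeq2 (adjusted p = 0.0102) and the exact test of edgeR (adjusted p = 0.0285), and Srpx (adjusted p = 0.00228) and Wif1 (adjusted p = 0.0485) without RaptorKO injured replicate 2. Those called higher in contralateral nerves numbered 4, and 2 to 4 with a library left out. Different injury effects numbered 5, but 8 with DESeq2 and 2 to 5 with a library left out. Of 655 recomputed values of 47 single-gene tests, 583 stayed on their side of the threshold, 64 lost and 8 gained the call, and none reversed. The causes were not tested.

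Injured and contralateral nerves share replicate numbers, but the labels do not say that a number is an animal. The deviations of same-numbered nerves had correlations of 0.07, 0.13, and 0.30 in controls and -0.02, 0.21, and 0.17 in RaptorKOs. Those of differently numbered nerves ranged from -0.23 to 0.14 in controls and from -0.30 to 0.14 in RaptorKOs. Both control libraries numbered 3, and no others, had high Xist. Whether a number marks a mouse was not settled, and the numbers were not used as pairs. If it does, the injury and interaction tests treated both nerves of a mouse as independent. With a replicate block, 2 of the 6 genes were called in contralateral nerves, Sostdc1 (adjusted p = 0.0103) and Ccdc80 (adjusted p = 0.0285). There 8 instead of 4 family genes were called higher. The calls of Clca3b (adjusted p = 0.0553), Sez6l2 (adjusted p = 0.0754), and the interaction of Fst (adjusted p = 0.0868) were lost. Between genotypes the block joined control and RaptorKO nerves of the same number, which come from different mice. It also left out RaptorKO contralateral replicate 4, and leaving out that library alone called Sostdc1 as well (adjusted p = 0.00821). These genotype results therefore say nothing on pairs within a mouse. The blocks of the injury comparisons and of the interaction joined numbers within a genotype. With injury in controls, 4051 genes were called lower and 3975 higher with the block, against 4087 and 4032 without it. In RaptorKOs these were 3546 and 3693 with the block, against 3561 and 3811 without it. Depth limited Gzmb and Sez6 in contralateral nerves, where they held at most 1 and 6 counts.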
